A study of Mus musculus with 4 samples.

Results

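The genes described here are the G1 cyclins and CDK inhibitors that control entry into and exit from the cell cycle. They were picked out by their symbols as 10 genes of the 23420 listed in each count file, and comprise the D-type cyclins (*Ccnd1*, *Ccnd2*, *Ccnd3*), the E-type cyclins (*Ccne1*, *Ccne2*), the Cip/Kip inhibitors *Cdkn1b* and *Cdkn1c*, and the Ink4 inhibitors *Cdkn2a*, *Cdkn2b* and *Cdkn2c*. RNA-seq was analyzed from cervical motor neuron (MN) cultures made from E14 mouse embryonic stem cells (mESCs), with 2 WT libraries and 2 *Patz1* -/- (*Patz1* KO) libraries. Both genotypes were kept in LIF and 2i and then differentiated as embryoid bodies with retinoic acid and a smoothened agonist, so these treatments were shared by the controls. PATZ1 is a zinc finger protein related to the insulator MAZ. The replicates were separate differentiations by the study's methods. *Patz1* KO lines were made by CRISPR/Cas9 as clones, and the labels do not say which clone gave which library, so a feature of 1 clone and an effect of the genotype cannot be told apart. The titles of the samples name ESCs, whereas their source and cell type name MNs.

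D-type cyclins bind CDK4 and CDK6 and E-type cyclins bind CDK2, and these kinases phosphorylate the retinoblastoma proteins and thereby release E2F factors to drive S phase. The Cip/Kip proteins p27 (*Cdkn1b*) and p57 (*Cdkn1c*) bind cyclin-CDK complexes broadly, whereas the Ink4 proteins bind CDK4 and CDK6 alone. In the ventral neural tube, progenitors leave the cycle as they become MNs, and both Cip/Kip proteins are known for their part in that exit.

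The samples were first examined for their depth, their labels and their cell types, with fold changes given as *Patz1* KO over WT on the log2 scale. Total counts were 14769104 to 15728158 in WT and 17402342 to 23881522 in *Patz1* KO. The targeted gene *Patz1* had 1363 and 1499 reads in WT but 1154 and 714 in *Patz1* KO (log2 fold change -1.04, SE 0.095), so that its RNA was lower but still present in both KO libraries. By the test described below, 24.1% of all genes tested were higher in *Patz1* KO and 23.8% were lower. The MN markers were present in every library, with 7 of 8 higher in *Patz1* KO, among them the vesicular acetylcholine transporter *Slc18a3* (log2 fold change 0.73) and *Lhx3* (0.63). Of 8 general neuron markers 4 were higher and 1 was lower. The 2 with the most counts, *Dcx* (1.01) and *Tubb3* (0.53), were among the higher ones. Markers of neural progenitors moved both ways, with 4 higher and 4 lower of 10, and of the most counted ones *Nes* fell (-0.72) and *Sox2* was not called (-0.20). Mesenchyme markers were all present in WT and all 6 fell, including *Col3a1* (-3.24) and *Col1a2* (-1.37), with a summed level of 184 to 206 CPM (read counts scaled to the TMM library size) in WT against 30.5 to 36.2 CPM in *Patz1* KO. Of the 7 primitive endoderm markers tested 5 fell, including *Dab2* (-3.34) and *Cubn* (-2.92), with a summed level over the 8 listed of 42.6 to 49.9 CPM against 7.51 to 7.67 CPM. Of the pluripotency markers 1 of 4 tested fell, and of those of endothelium and blood 3 fell and 1 rose of 5. Pluripotency markers summed to at most 13.1 CPM and markers of endothelium and blood to at most 13.5 CPM in any library, with *Gata1* at or under 3 counts in all 4.

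The level of each member was then compared between the genotypes with edgeR's quasi-likelihood test, fitted on the 14269 genes that passed the filter on low counts, and a gene was called at a Benjamini-Hochberg adjusted p below 0.05. All 10 members passed the filter and 6 of 10 were called, 3 lower and 3 higher in *Patz1* KO. Across the genes tested 47.9% were called, 23.8% lower and 24.1% higher, so that the number of members called was near the background. The groups did not overlap for 9 of 10 members, against 74.2% of the genes tested. The 3 that fell were the cyclins *Ccnd1*, *Ccnd2* and *Ccne2*, and the 3 that rose were the inhibitors *Cdkn1b*, *Cdkn1c* and *Cdkn2a*. No inhibitor fell and no cyclin rose by this test. In a bulk library, fewer cells of a type and less RNA per cell cannot be told apart.

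**Figure D1:**
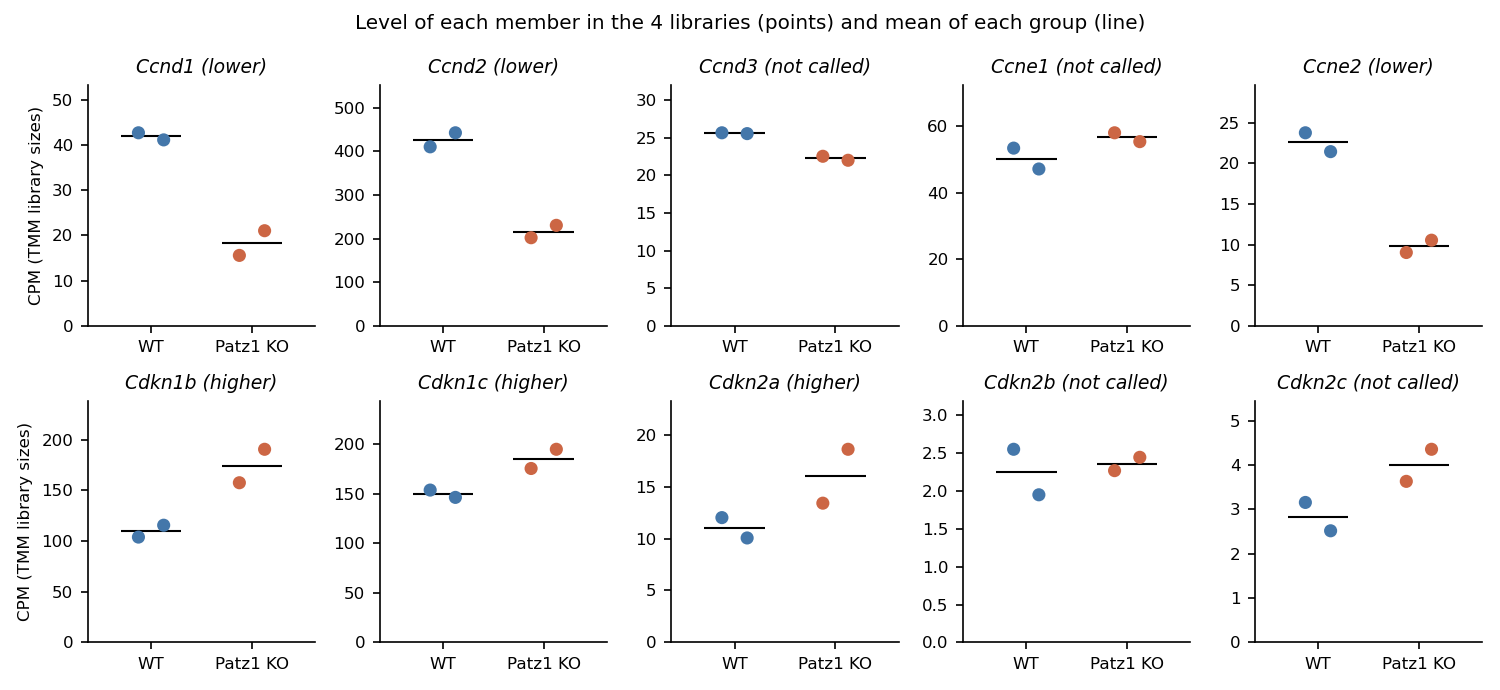
Level of each of the 10 members in CPM (y axis, from 0 in every panel) in the 2 WT and 2 Patz1 KO libraries (x axis), with a point for each library, a line at the mean of the group and the call in brackets. The groups overlap for Cdkn2b alone, and the points of Ccnd1, Ccnd2 and Ccne2 in Patz1 KO lie far below those in WT.

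The D-type cyclins were taken first, because they link growth signals to G1. For *Ccnd1* 636 and 654 reads were counted in WT, and 378 and 353 in *Patz1* KO. This was 42.7 and 41.1 CPM in WT and 15.6 and 21.1 CPM in *Patz1* KO. Both KO libraries lay below both WT libraries, and the level was 2.31-fold lower (log2 fold change -1.21, SE 0.13, 95% interval -1.48 to -0.94, adjusted p = 6.22e-07). *Ccnd2*, the D-type cyclin with the most reads in every library, had 6113 and 7037 counts in WT and 4898 and 3866 counts in *Patz1* KO. Its level was 410.4 and 443 CPM in WT and 202 and 230.5 CPM in *Patz1* KO. The groups were again separate, with a level 1.97-fold lower in *Patz1* KO (log2 fold change -0.98, SE 0.098, adjusted p = 3.14e-07). *Ccnd3* had 382 and 406 counts in WT and 546 and 369 counts in *Patz1* KO, or 25.7 and 25.5 CPM against 22.5 and 22.0 CPM. The KO libraries lay slightly below the WT libraries, but the log2 fold change of -0.20 (SE 0.11, 95% interval -0.44 to 0.04) did not pass the test (adjusted p = 0.153). The intervals of *Ccnd1* and *Ccnd2* lie wholly below that of *Ccnd3*.

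Of the E-type cyclins, which act with CDK2 at the entry into S phase, *Ccne2* fell and *Ccne1* did not pass the test. *Ccne2* had 354 and 341 counts in WT and 219 and 177 counts in *Patz1* KO. On the CPM scale it went from 23.8 and 21.4 in WT to 9.04 and 10.6 in *Patz1* KO. These groups did not overlap, and the level was 2.32-fold lower in *Patz1* KO (log2 fold change -1.21, SE 0.14, 95% interval -1.51 to -0.92, adjusted p = 1.49e-06). *Ccne1* had 796 and 750 counts in WT and 1407 and 929 counts in *Patz1* KO. Its level was 53.4 and 47.2 CPM in WT and 58.1 and 55.4 CPM in *Patz1* KO, so that the closest libraries of the groups differed by less than the WT libraries did from each other. The log2 fold change was 0.17 (SE 0.099, 95% interval -0.03 to 0.38, adjusted p = 0.155).

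The Cip/Kip inhibitors both rose. *Cdkn1b*, which encodes p27, had 1548 and 1838 counts in WT and 3817 and 3195 counts in *Patz1* KO. Its level was 104 and 116 CPM in WT and 157 and 190.5 CPM in *Patz1* KO. The KO libraries were both above WT, by more than the difference within either group, and the level was 1.58-fold higher (log2 fold change 0.66, SE 0.1, 95% interval 0.45 to 0.87, adjusted p = 3.15e-05). *Cdkn1c*, which encodes p57 and is expressed from the maternal allele in most tissues, had 2292 and 2329 counts in WT and 4258 and 3272 counts in *Patz1* KO. This was 154 and 146 CPM in WT and 176 and 195 CPM in *Patz1* KO. The groups were separate but closer than for *Cdkn1b*, and the level was 1.23-fold higher (log2 fold change 0.30, SE 0.089, 95% interval 0.12 to 0.49, adjusted p = 0.00905). The call for *Cdkn1c* rested on both WT libraries, since leaving out WT replicate 1 gave a log2 fold change of 0.34 with an adjusted p of 0.067 and leaving out WT replicate 2 gave 0.27 with an adjusted p of 0.162.

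The Ink4 inhibitors had few reads, and *Cdkn2b* and *Cdkn2c* had the fewest of the members in every library. *Cdkn2a* had 179 and 160 counts in WT and 325 and 312 counts in *Patz1* KO. The level was 12.02 and 10.1 CPM in WT and 13.4 and 18.6 CPM in *Patz1* KO. The groups were separate, though *Patz1* KO replicate 1 lay close to WT replicate 1, and the level was 1.44-fold higher (log2 fold change 0.52, SE 0.17, 95% interval 0.17 to 0.88, adjusted p = 0.0159). This call was lost under 3 of 12 alternatives: the adjusted p was 0.0558 with DESeq2's Wald test, 0.13 without WT replicate 2 (log2 fold change 0.41) and 0.101 without *Patz1* KO replicate 2 (0.29). *Cdkn2b*, which encodes p15, had 38 and 31 counts in WT and 55 and 41 counts in *Patz1* KO, or 2.55 and 1.95 CPM against 2.27 and 2.44 CPM. Its groups overlapped, and the interval of the log2 fold change, -0.55 to 0.68, spanned 0, so no change was detectable at this depth (log2 fold change 0.06, adjusted p = 0.874). *Cdkn2c*, which encodes p18, had 47 and 40 counts in WT and 88 and 73 counts in *Patz1* KO, or 3.15 and 2.52 CPM against 3.63 and 4.35 CPM. Its groups were separate, but the log2 fold change of 0.48 (SE 0.26, 95% interval -0.06 to 1.03) did not pass the test (adjusted p = 0.132). Without WT replicate 2, which left 1 of the 3 inhibitor calls, *Cdkn1b* was the only member called higher.

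**Figure D2:**
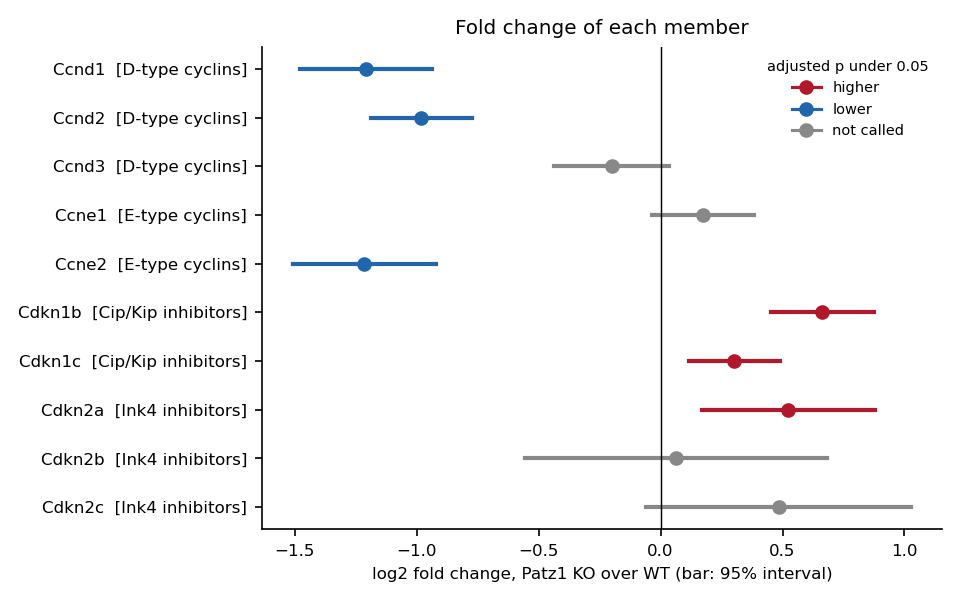
Log2 fold change of each member, Patz1 KO over WT (x axis), with the 95% interval as a bar and the family of the gene in brackets on the y axis. The intervals of Ccnd1, Ccnd2 and Ccne2 lie below -0.77, and those of Cdkn1b, Cdkn1c and Cdkn2a lie above 0.

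The relative amounts of the members were described per kb of annotated exon, a scale on which levels of different genes can be set side by side. In WT the order of the mean levels ran from *Cdkn1c* at 73.7 ± 2.57 CPM per kb (SD, n = 2), over *Ccnd2* at 45.3 ± 2.42, *Cdkn1b* at 24.1 ± 1.81 and *Ccne1* at 18.9 ± 1.67, to *Cdkn2a* at 9.42 ± 1.18, *Ccnd1* at 8.90 ± 0.235 and *Ccne2* at 6.47 ± 0.469. *Ccnd3*, *Cdkn2b* and *Cdkn2c* followed at 2.92, 1.62 and 1.06 CPM per kb. Of the neighbours in this order, only the libraries of *Cdkn2a* and *Ccnd1* overlapped. In *Patz1* KO *Cdkn1c* remained first at 90.9 ± 6.74 CPM per kb (SD, n = 2), *Cdkn1b* came second at 38.2 ± 5.13, and *Ccnd2* followed at 23.0 ± 2.14, where it overlapped with *Ccne1* at 21.3 ± 0.705. The order of the other 6 genes was the same as in WT. These levels depend on the exon length used: with the length of the principal transcript alone, *Ccnd3* stood 5th in WT and 6th in *Patz1* KO rather than 8th in both. On that length *Cdkn1b* was still second in *Patz1* KO, but its libraries (34.6 and 41.9 CPM per kb) overlapped with those of *Ccnd2* (31.9 and 36.4). *Ccnd2* then no longer overlapped with *Ccne1* (29.0 and 27.7).

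Summed over the 3 genes, the D-type cyclins went from 55.6 and 58.7 CPM per kb in WT to 27.4 and 31.5 CPM per kb in *Patz1* KO. Within this sum *Ccnd2* held 78.4% and 80.2% in WT against 78.5% and 77.8% in *Patz1* KO, and *Ccnd3* held 5.26% and 4.96% against 9.38% and 7.97%. The share of *Ccnd3* depends strongly on the length used, and with the principal transcript, a length chosen after seeing the data, it was 14.0% and 13.3% in WT against 23.2% and 20.2% in *Patz1* KO. The sum was thus lower in both *Patz1* KO libraries, with *Ccnd2* as the main member in all 4. The summed E-type cyclins, by contrast, had 26.9 and 23.9 CPM per kb in WT against 24.4 and 23.8 CPM per kb in *Patz1* KO, which overlapped. Their make-up differed, since *Ccne1* held 74.7% and 74.3% in WT and 89.4% and 87.3% in *Patz1* KO. The ratio of *Ccne1* to *Ccne2*, per kb, was 2.95 and 2.89 in WT and 8.44 and 6.89 in *Patz1* KO. The 5 inhibitors together had 112 and 108 CPM per kb in WT and 135 and 157 in *Patz1* KO, with 61.0% to 67.6% of it from *Cdkn1c* in every library. The ratio of *Cdkn1b* plus *Cdkn1c* to the D-type cyclins was 1.77 and 1.66 in WT and 4.41 and 4.37 in *Patz1* KO. Exon length matters for this ratio too. With the principal transcript, the D-type sums were larger, at 88.7 and 93.3 CPM per kb (WT) and 47 and 52.7 (*Patz1* KO). The level of *Cdkn1b* stayed the same on that length and that of *Cdkn1c* changed less. The ratio was thus smaller in every library, but still higher in both *Patz1* KO libraries than in WT. With 2 libraries against 2 these sums and ratios were not tested. Within *Patz1* KO, replicate 2 had the higher CPM for 8 of the 10 members, all but the cyclins *Ccnd3* and *Ccne1*. Within WT, replicate 2 had the higher CPM for 2 of the 10. The same share over all genes was not computed.

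**Figure D3:**
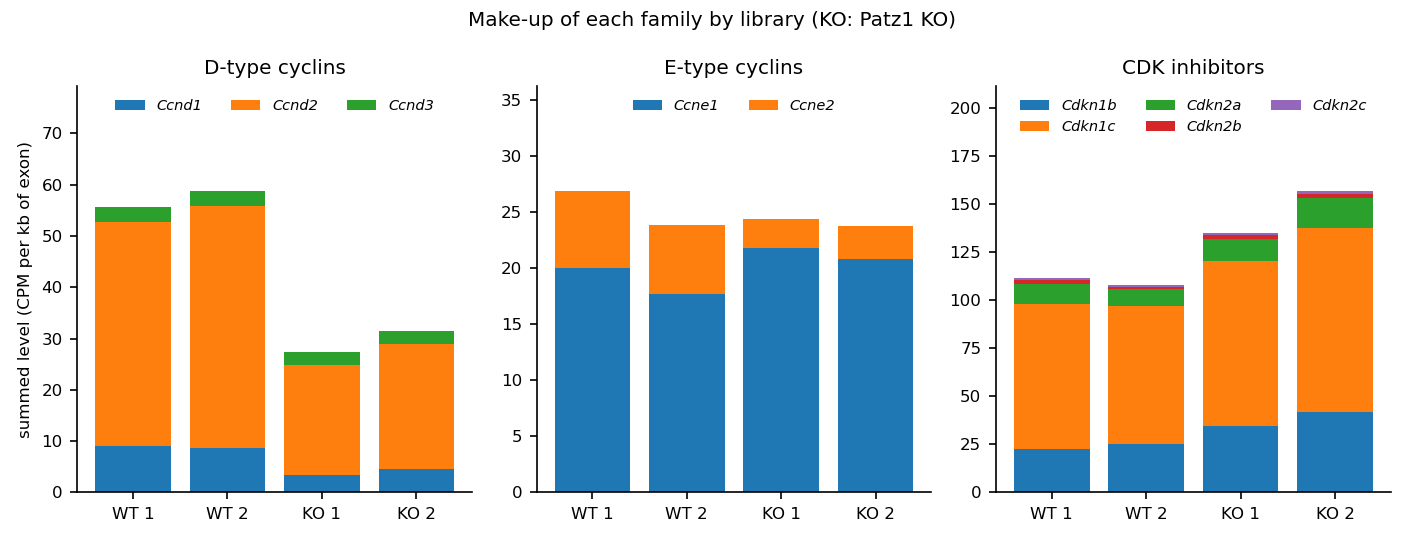
Summed level of each family in CPM per kb of exon (y axis) in each library (x axis), split by gene. The D-type cyclins drop to 27.4 and 31.5 CPM per kb in Patz1 KO with Ccnd2 as the main part throughout, the E-type sums of the groups overlap while the part of Ccne2 is smaller in Patz1 KO, and the inhibitor sum is higher in Patz1 KO.

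The positions of the members were examined next, on GRCm38 (mm10) with GENCODE M21. *Ccnd1* (chr7:144929931-144939925) overlaps exons of *Oraov1* on the opposite strand, *Ccnd3* (chr17:47505051-47599691) those of *Bysl* and *Ccne2* (chr4:11191351-11204779) those of *Ints8*. *Ccnd2* (chr6:127125162-127152193) and *Cdkn1c* (chr7:143458339-143461050) overlap antisense genes. The kit was stranded, but the strand setting of the counting was not given in the sources used here, so reads of these pairs may not be fully separated. *Oraov1* had 239 and 268 counts in WT and 499 and 410 counts in *Patz1* KO and rose (log2 fold change 0.45, adjusted p = 0.00854), opposite to *Ccnd1*. *Ints8* (log2 fold change -0.07) and the antisense gene *9330179D12Rik* at *Ccnd2*, with at most 16 counts in any library, were not called. *Ccne1* (chr7:38097984-38107534), *Cdkn1b* (chr6:134920401-134925513), *Cdkn2b* (chr4:89306299-89311039) and *Cdkn2c* (chr4:109660876-109667189) share no exon with another gene.

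*Cdkn2a* (chr4:89274471-89294653) has 2 coding transcripts with separate first exons, the upstream one for p19Arf, which acts on p53, and the downstream one for p16Ink4a, which acts on CDK4 and CDK6. They share 575 of 1172 bp of exon, and the files hold 1 value for both, so the rise of *Cdkn2a* cannot be assigned to either product. The sequences before both starts, and those before *Cdkn2b* and *Cdkn1b*, are shown because they are the starts from which the counted inhibitor transcripts of this locus, and of the member with the largest rise, arise. They are RefSeq sequences on GRCm38.p6, from a table in which 6 of the 10 members were matched, in the direction of the gene and up to the first annotated exon. Capitals mark matches, on either strand, to the E2F motif (TTTCCCGC, TTTCGCGC, TTTGCCGC or TTTGGCGC) or to the G-rich run GGGAGGG.

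*Cdkn2a*, p19Arf start, chr4:89294654-89294869, minus strand: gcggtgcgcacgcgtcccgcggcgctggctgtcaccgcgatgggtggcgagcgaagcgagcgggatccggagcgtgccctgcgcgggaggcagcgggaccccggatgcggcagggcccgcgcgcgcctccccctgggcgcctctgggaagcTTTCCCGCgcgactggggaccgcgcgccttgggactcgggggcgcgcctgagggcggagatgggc

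*Cdkn2a*, p16Ink4a start, chr4:89282193-89282442, minus strand: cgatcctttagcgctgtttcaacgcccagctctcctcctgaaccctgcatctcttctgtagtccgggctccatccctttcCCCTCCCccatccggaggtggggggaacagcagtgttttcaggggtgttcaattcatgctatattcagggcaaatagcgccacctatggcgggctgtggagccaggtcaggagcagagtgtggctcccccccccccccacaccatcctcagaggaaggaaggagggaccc

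*Cdkn2b*, chr4:89311040-89311282, minus strand: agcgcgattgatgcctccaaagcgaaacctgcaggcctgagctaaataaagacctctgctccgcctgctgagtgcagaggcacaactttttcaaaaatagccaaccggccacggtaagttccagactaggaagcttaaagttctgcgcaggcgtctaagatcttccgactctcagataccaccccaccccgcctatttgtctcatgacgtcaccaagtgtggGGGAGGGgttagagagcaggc

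*Cdkn1b*, chr6:134920151-134920400, plus strand: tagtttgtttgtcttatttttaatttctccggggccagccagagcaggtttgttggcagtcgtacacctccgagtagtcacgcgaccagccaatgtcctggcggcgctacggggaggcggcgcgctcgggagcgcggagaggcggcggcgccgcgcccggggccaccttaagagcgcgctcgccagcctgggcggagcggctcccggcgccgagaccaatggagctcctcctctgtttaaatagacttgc

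The p19Arf start of *Cdkn2a* held the letters TTTCCCGC, beginning 99 bases before the RefSeq start. One of the E2F words was found in the 250 bases before 1.86% of the 32851 RefSeq starts, and before none of the other 8 starts of the members. The G-rich run was present before the p16Ink4a start of *Cdkn2a* and before *Cdkn2b*, and before 19.7% of all starts. It was also present before 1 of the 2 starts of *Ccnd3*, with 3 overlapping copies. These are matches of letters, and binding at them was not measured here.

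To see whether members moved alone or with their surroundings, genes with a start within 250 kb of a member start were listed. Of 43 such genes tested, 12 were higher and 8 were lower, near the 24.1% higher and 23.8% lower over all genes tested. The windows of *Cdkn1b* and *Cdkn1c* are described as examples. Around *Cdkn1b*, the window with the most genes called higher, 5 of 8 were higher and 0 were lower. This window holds few genes and no test was made for it. On its upstream side the nearest tested gene was *Gpr19*, an orphan receptor gene with a start 21.8 kb away, which had 26.9 and 28.8 CPM in WT and 56.1 and 52.9 CPM in *Patz1* KO (log2 fold change 0.97, adjusted p = 4.57e-07). On its downstream side *1190002F15Rik*, 8.69 kb away, had 7.05 and 5.85 CPM in WT and 8.21 and 11.7 CPM in *Patz1* KO (log2 fold change 0.61, adjusted p = 0.0185). Both thus moved in the direction of *Cdkn1b*. *Crebl2*, which was picked out after its values were seen, had the largest rise in this window, with 35 and 44 counts in WT and 276 and 210 counts in *Patz1* KO (log2 fold change 2.21). *Dusp16* (0.87) and *Ddx47* (0.47) were also called higher, whereas *2810454H06Rik*, *Apold1* and *Gprc5a* were not called.

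Around *Cdkn1c* 0 of 4 genes tested were higher and 2 were lower. The lower ones were *Kcnq1ot1* and *Cars* (log2 fold change -0.77), while *Tnfrsf22* was not called. The nearest tested gene on one side was *Kcnq1ot1*, the long non-coding RNA of the same imprinted domain, whose transcription from the paternal allele is known to keep *Cdkn1c* silent there. *Kcnq1ot1* had 382 and 446 CPM in WT and 175 and 188 CPM in *Patz1* KO, a level 2.28-fold lower (log2 fold change -1.19, SE 0.1, adjusted p = 3.79e-08). On the other side *Nap1l4*, a histone chaperone gene, had 270.4 and 260.4 CPM in WT and 257 and 261 CPM in *Patz1* KO and was not called (log2 fold change -0.03, adjusted p = 0.774). The RNAs of *Cdkn1c* and *Kcnq1ot1* therefore moved in opposite directions. The counts do not separate the alleles, and *Kcnq1ot1* lies within *Kcnq1* on the other strand, so reads of both may be mixed.

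Around the other members the nearest tested genes moved in no common direction. Beside *Ccnd1* it was *Oraov1*, described above. Beside *Ccnd2* the only tested side held *9330179D12Rik*. *Taf8* (log2 fold change -0.08) and *Bysl* (-0.26) flank the start of *Ccnd3*, and of these *Bysl* was called lower. *Uri1* and *1600014C10Rik* flank *Ccne1*, and 0 of the 4 tested genes in that window were called. *Trp53inp1*, a p53 target beside *Ccne2*, rose (0.26) while *Ccne2* fell. In the Ink4 locus *Mtap*, a methionine salvage enzyme gene, fell (log2 fold change -0.59, adjusted p = 7.68e-05) while *Cdkn2a* rose. *Faf1* and *Rnf11* beside *Cdkn2c* were not called.

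**Figure D4:**
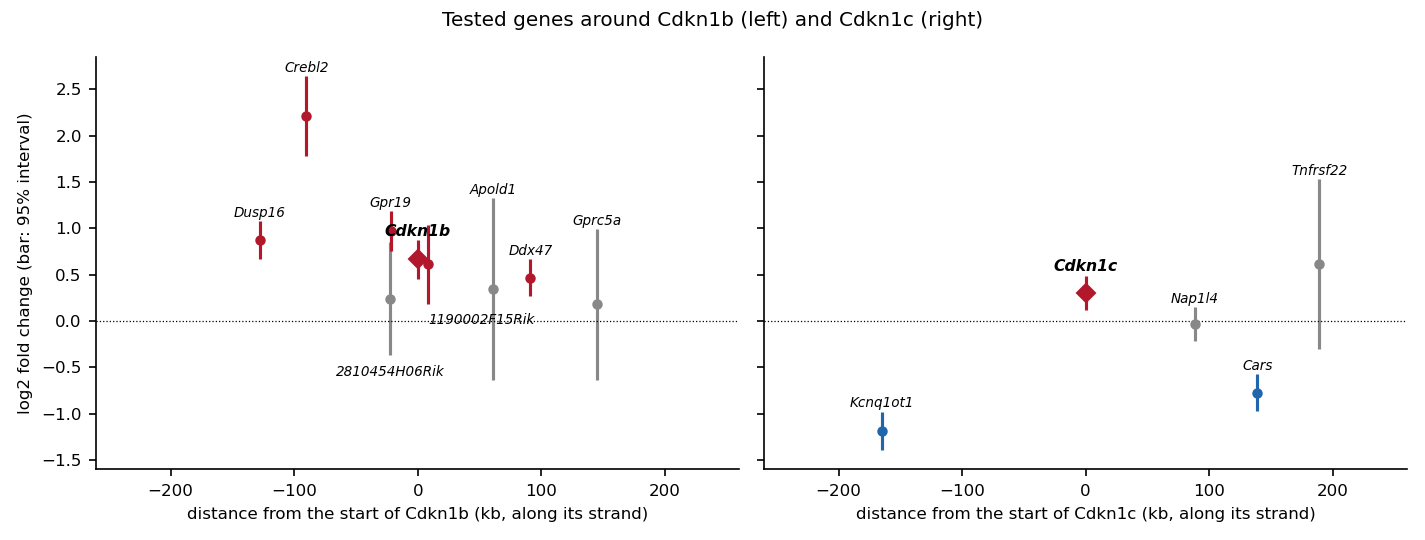
Log2 fold change with its 95% interval (y axis) of the tested genes against the distance of their start from that of Cdkn1b (left) or Cdkn1c (right) in kb (x axis), with genes called higher in red, called lower in blue and not called in grey. Diamonds are the members. Around Cdkn1b 5 of 8 genes lie above 0 with a call, whereas Kcnq1ot1 and Cars lie below 0 around Cdkn1c.

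The members act through partners that were described as lists of 71 other G1 control genes, all of them tested. Of these 15 were higher and 32 were lower, with a median log2 fold change of -0.22, beside -0.001 over all genes tested. Over all genes tested 24.1% were higher and 23.8% were lower, which is the background for each shorter list below. Without WT replicate 2 the number lower was 21. In the list of G1 kinases and genes that activate or assemble them 0 of 8 were higher and 6 were lower. *Cdk6*, the partner of D-type cyclins, had 124 and 128 counts in WT and 37 and 21 counts in *Patz1* KO, a level 5.79-fold lower (log2 fold change -2.53, SE 0.24, adjusted p = 1.93e-07). *Cdk4*, the other partner, was present at a far higher number of reads and fell less, from 640.4 and 625 CPM to 418 and 419 CPM (log2 fold change -0.60). *Cdk2*, the partner of the E-type cyclins, fell from 47.1 and 51.8 CPM to 25.7 and 26.8 CPM (log2 fold change -0.92).

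The other inhibitors of the Cip/Kip and Ink4 families moved as *Cdkn1b* did. *Cdkn1a*, which encodes p21, had 27.8 and 24.0 CPM in WT and 33.4 and 50.9 CPM in *Patz1* KO (log2 fold change 0.69, adjusted p = 0.00107). *Cdkn2d*, which encodes p19Ink4d, had 37.3 CPM in both WT libraries and 52.0 and 49.9 CPM in *Patz1* KO (log2 fold change 0.45, adjusted p = 0.000884). Per kb of exon, *Cdkn2d* held 62.2% to 69.6% of the 4 Ink4 genes in every library, more than the 3 Ink4 members together. Of the kinases and phosphatases that oppose CDKs in the same list, *Wee1*, which places an inhibitory phosphate on CDKs, fell (log2 fold change -0.92), while *Pkmyt1* and *Cdkn3* were not called.

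The retinoblastoma family, the targets of the cyclin-CDK complexes, moved in both directions. *Rbl2*, which encodes p130 of resting cells, rose from 18.2 and 19.1 CPM to 34.2 and 30.2 CPM (log2 fold change 0.79), and *Rb1* rose slightly (0.25). *Rbl1*, which encodes p107 of cycling cells, fell from 40.8 CPM in both WT libraries to 26.4 and 24.4 CPM (log2 fold change -0.68). In the whole list of 13 genes with the E2F factors 2 were higher and 6 were lower. *E2f8*, a repressor E2F of S phase, had 192 and 211 counts in WT and 66 and 45 counts in *Patz1* KO (log2 fold change -2.27), and its relative *E2f7* fell also (-1.18). *E2f1*, an activator of S phase genes, had a smaller change (log2 fold change -0.49, adjusted p = 0.0394). The DREAM complex core, which pairs with p107 and p130, was listed together with *Mybl2*. Of these 6 genes 0 were higher and 5 were lower, led by *Mybl2* (-0.74), *Lin54* (-0.48) and *Lin9* (-0.54).

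In the list of ubiquitin ligase parts and regulators for p27, p57 and G1 cyclins 5 of 15 were higher and 5 of 15 were lower, beside 24.1% and 23.8% over all genes tested. *Skp2* and its cofactor *Cks1b*, which mark p27 for breakdown, fell from 74.1 and 78.5 CPM to 42.7 and 45.7 CPM (log2 fold change -0.79) and from 73.0 and 71.3 CPM to 35.4 and 44.8 CPM (-0.85). *Dtl*, which directs p21 to breakdown in S phase, fell as well (-0.82). *Fbxw7*, which marks cyclin E, rose from 148 and 154 CPM to 234 and 245.5 CPM (log2 fold change 0.67). Protein levels were not measured in these libraries.

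Of 14 growth signal and lineage regulators of D-type cyclins 3 were higher and 6 were lower. *Gli3*, a Hedgehog pathway factor, had 322 and 424 counts in WT and 70 and 44 counts in *Patz1* KO (log2 fold change -3.12), the largest change of the 71 genes. *Myc* fell (-1.18), with at most 185 counts in any library. *Btg2*, an antiproliferative gene that lowers cyclin D1 and marks neurogenic divisions, rose from 82.3 and 89.4 CPM to 172 and 185 CPM (log2 fold change 1.05). Of 10 Polycomb genes that act on the Ink4 locus 3 were higher and 3 were lower, beside 24.1% and 23.8% over all genes tested. The chromobox gene *Cbx7*, known as a repressor of the Ink4 locus, rose 3.50-fold (log2 fold change 1.81, SE 0.11), and *Cbx8* (1.14) rose with it.

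The markers of S phase and mitosis, the phases that follow G1, all fell, with a median log2 fold change of -0.78. All 20 of 20 were called lower, beside 23.8% of all genes tested. The list was chosen with earlier results of these data known, so this count is a description only. Their summed level was 2684 and 2831 CPM in WT and 1515 and 1519 CPM in *Patz1* KO. *Tyms*, which makes thymidylate for DNA synthesis, fell from 57.7 and 62.6 CPM to 17.8 and 17.1 CPM (log2 fold change -1.78), and *Rrm2* (-1.10) and *Mki67* (-1.13) fell by smaller amounts. The fall of *Ccnd1* and *Ccne2* was thus larger on the log2 scale than the median of this list, and that of *Ccnd2* was also. The S phase and mitosis, mesenchyme and most primitive endoderm markers fell and most MN markers rose between the same libraries. Their part in the changes of the members was not tested.

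**Figure D5:**
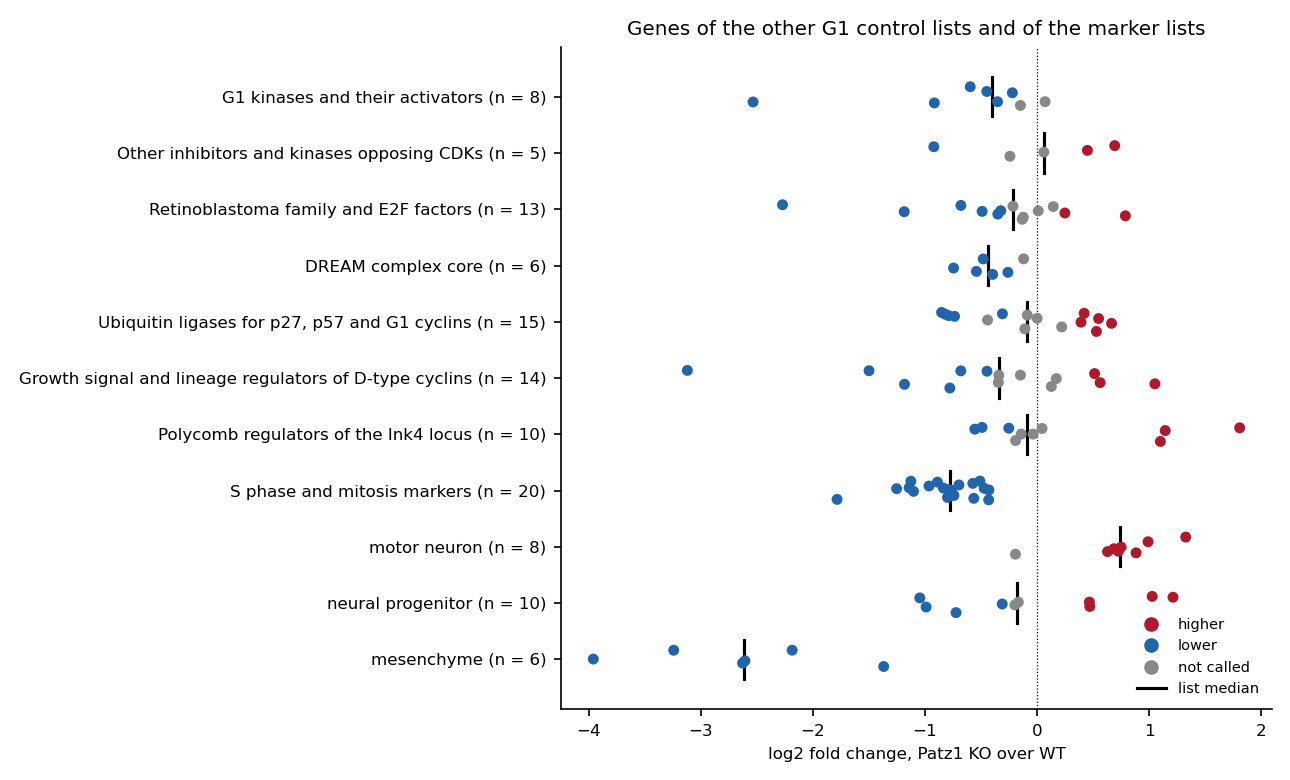
Log2 fold change, Patz1 KO over WT (x axis), of each tested gene in 7 lists of other G1 control genes and 4 marker lists (y axis, with the number of genes), where points are genes in red if called higher, blue if called lower and grey if not called, and black lines are list medians. All 20 S phase and mitosis markers lie below 0 and so do all 6 mesenchyme markers, whereas 7 of 8 MN markers lie above it with a call.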

How the data were processed

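RNA-seq of cervical MN cultures was used, with 2 WT and 2 *Patz1* KO libraries grouped by the genotype in the labels. The deposited values are raw counts of reads per gene symbol, made by the authors on mm10. The submitters' processing notes name TopHat2 2.1.1, Bowtie2 2.3.1, featureCounts 1.6.2 and DESeq2, with no role for each, and the annotation and strand setting of the counting were not given in the sources used here. Every row names a gene.

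Genes were filtered with filterByExpr (minimum count 10), scaled by TMM and compared with edgeR's quasi-likelihood test (edgeR 4.0.16, limma 3.58.1, R 4.3.3). The design was group alone, SE was the absolute log2 fold change over the square root of F, and adjusted p values are Benjamini-Hochberg over all genes tested. CPM used TMM library sizes, and CPM per kb used merged exons of GENCODE M21, to which 23034 of 23420 symbols were matched, 1249 of them by a RefSeq synonym. Counts of 3 or fewer were taken as the detection limit, and intervals and this limit cover counting error or the spread of these libraries only. With 2 libraries per group, an exact test of a single value cannot pass 0.05 and none was run. Libraries of a group were separate differentiations per the study's methods.

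The members and gene lists were chosen with earlier results of these data known. The genes named are *Patz1*, the members, a set of central G1 genes, the 3 genes of lowest p in every list, up to 2 of the most counted markers per cell type, and the nearest tested gene on each side of a member. A gene that this rule names is not reported here by itself. Others were added after their values were seen (*Crebl2*, *Dusp16*, *Ddx47*, *2810454H06Rik*, *Apold1*, *Gprc5a*, *Cars*, *Tnfrsf22*, *Pkmyt1*, *Cdkn3*, *Gata1*). Alternatives were other scalings, other filters, DESeq2 1.42.0, robust estimation, a replicate block and leaving out each library, and the tests were tried on simulated counts. Sequences came from RefSeq (GRCm38.p6), and plots were drawn with matplotlib in Python. Promoter entries were not used here for *Ccnd1*, *Ccnd2*, *Ccne2* and *Cdkn1c*.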

Additional observations from a re-analysis of the deposited data

How the results depend on the processing

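Of the members, *Ccnd1*, *Ccnd2*, *Ccnd3*, *Ccne1*, *Ccne2*, *Cdkn1b* and *Cdkn2c* kept their direction and their side of the threshold under all 12 alternatives. *Cdkn1c* was no longer called without WT replicate 1 or 2, and over the 4 fits that leave out a library its log2 fold change was 0.23 to 0.38. *Cdkn2a* was no longer called with DESeq2's Wald test (log2 fold change 0.54) or without WT replicate 2 or *Patz1* KO replicate 2, with a range of 0.29 to 0.76. *Cdkn2b*, which was not called, had a log2 fold change of -0.11 without WT replicate 2 and reached 0.27 without another library. Members called higher went from 1 to 3 and pathway genes called lower from 21 to 35 when a library was left out. These fits have only 1 library in a group, which is assumed to vary like the other group. The replicate numbers were only shared numbers (correlation of deviations 0.03), and with the replicate block 3 members were called higher and 3 lower, with 3710 genes higher and 3651 lower in all. DESeq2's Wald test called 2672 genes higher and 2444 lower.

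With the length of the principal transcript, chosen after seeing the data, *Ccnd2* held 74.0% of the D-type cyclins in WT and 68.5% in *Patz1* KO rather than 79.3% and 78.2%, and *Ccne1* held 77.0% of the E-type cyclins in WT rather than 74.5%. *Cdkn2b* and *Cdkn2c*, with at most 88 counts in any library, are limited by depth.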
